A study of Mus musculus with 24 samples.

Results

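The male vehicle list held 87199 autosomal peaks of H3K27ac, the acetylation of histone H3 at lysine 27, and 8097 of them (9.29%) are described here. These regions were chosen by overlap of 1 bp or more. Each was in the list of vehicle-treated males, overlapped no peak of the list of males taken 4 days after weekly prednisone, and overlapped a peak of the male list of day 6 or of day 8. Because the rule used the 4 male lists, the calls in those lists are a description and were not tested. The 8 lists of the study together held 469078 peaks.

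Nucleosomes at active promoters and enhancers carry H3K27ac, so a map of the mark outlines the regulatory DNA in use in a tissue. Prednisone is a glucocorticoid that acts through the glucocorticoid receptor, a hormone-dependent transcription factor. In muscle this receptor is known for inducing genes of fuel use, such as the pyruvate dehydrogenase kinase Pdk4, and of protein breakdown. Muscle enhancers are also bound by MyoD-family and MEF2 factors, which maintain the muscle gene program.

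The study compared how chromatin of male and female myofibers changed after weekly prednisone and for how long. C57BL/6J mice, 10 weeks of age at onset by the study's methods, received vehicle (DMSO) or weekly intraperitoneal prednisone at 1 mg/kg for 4 weeks. Weekly treatment had vehicle on the days between. The methods give 5 weekly injections for 4-week treatments that ended 2 days after the last one. They give no separate count for the mice used here. Quadriceps were taken 4, 6 or 8 days after the last injection, myofibers were isolated with collagenase, and chromatin was precipitated with an antibody to H3K27ac. The 8 groups were male and female vehicle, and male and female weekly prednisone at day 4, day 6 and day 8, each with 2 H3K27ac libraries and 1 input library, and with 1 deposited peak list per group. The lists do not show the 2 libraries apart, so no spread between animals can be given and no difference between days was tested. Intervals are Wilson 95% intervals and cover counting error only.

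The depth behind each list bears on every count of absent peaks. The male day 4 list rested on 7.52 M H3K27ac tags, while the other 7 lists rested on 27.5 to 50.6 M. Its lowest peak score, a tag number given by the peak caller, was 7, which is 9.31 per 10 M tags, and the male vehicle list went down to 2.85 per 10 M tags. The day 6 and day 8 lists of males stopped at 4.95 and 4.68 per 10 M tags. The starts of 9 of 10 myofiber marker genes lay in a male vehicle peak, 6 in a day 4 peak, 9 in a day 6 peak and 8 in a day 8 peak. The starts of 8 of 8 endothelial marker genes lay in vehicle peaks, against 3, 5 and 3 at days 4, 6 and 8. In vehicle the counts were 3 of 5 for Schwann cell, 3 of 8 for fibroblast and 3 of 8 for smooth muscle markers. They were 2 of 8 for leukocyte, 1 of 6 for satellite cell and 0 of 7 for adipocyte markers. By another measure, 60.5% of all autosomal protein-coding genes had a vehicle peak within 2 kb of a start. These counts do not single out myofibers.

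The label of the set, peaks lost and then restored, could not be checked from these lists. Scaled to the depth of the day 4 list, the vehicle score of the 8097 regions had a median of 2.62, under the lowest score of 7 in that list. Only 30 regions (0.371%) had a scaled score that reached it. The 8954 vehicle peaks that were called at day 4 had a scaled median of 2.85, and 238 of them (2.66%) reached the same limit. Most peaks called at day 4 were thus also under the limit, so the scaled score does not tell which peaks were called. When a score of 9.31 per 10 M tags was asked of every list, a comparison chosen after seeing the data, 271 autosomal vehicle peaks were left, 33 of these had no day 4 overlap and 14 met the full rule. A lower H3K27ac level at day 4 and a higher limit for calling peaks there cannot be told apart, and the regions are called re-called regions below: called in vehicle, not called at day 4, called again at day 6 or day 8.

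Several re-called regions lay at promoters of genes of fuel use, or held motifs of the factors named above. Central windows of 300 bp are shown from mm10 (sequence of GRCm38.p6, plus strand), without overlap of an annotated RefSeq exon. Capitals mark matches, outside repeats, to 8 motifs searched on both strands: ACANNNTGT (core of the glucocorticoid receptor element), CAGCTG (MyoD E-box), MEF2, TGANTCA (AP-1), CATTCC (TEAD), TCAAGGTCA (estrogen-related receptors), TGACGTCA (CRE) and TGTGGT (RUNX). None of these motifs contains another. The promoter windows of Pdk4 and of Dgat2, the last enzyme of triglyceride synthesis, are centered at -0.329 and -0.162 kb from the gene's start.
Pdk4, chr6:5496458-5496757: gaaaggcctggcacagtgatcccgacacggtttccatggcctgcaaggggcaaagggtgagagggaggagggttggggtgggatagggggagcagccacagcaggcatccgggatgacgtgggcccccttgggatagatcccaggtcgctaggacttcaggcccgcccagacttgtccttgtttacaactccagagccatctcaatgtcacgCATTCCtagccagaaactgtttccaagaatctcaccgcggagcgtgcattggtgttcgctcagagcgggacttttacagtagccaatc
Dgat2, chr7:99182726-99183025: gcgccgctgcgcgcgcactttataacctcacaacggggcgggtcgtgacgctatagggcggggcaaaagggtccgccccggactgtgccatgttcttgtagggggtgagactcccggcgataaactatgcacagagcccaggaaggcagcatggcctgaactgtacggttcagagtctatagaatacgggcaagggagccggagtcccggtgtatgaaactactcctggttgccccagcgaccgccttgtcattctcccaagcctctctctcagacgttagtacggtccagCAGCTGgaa

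The next windows lie outside promoters. Those of Mbnl2 and Mrtfb were picked for their matches among the regions of these genes, and that of Slc8a3 for its distance to a day 4 peak. The Mbnl2 window, in an intron 62.3 kb after a start of this splicing-factor gene, held 2 matches to the glucocorticoid receptor core. The window 22.8 kb before a start of Mrtfb, a coactivator of serum response factor, held 2 overlapping matches to the core and 1 E-box. The Slc8a3 window, in an intron of a sodium-calcium exchanger gene, held 1 E-box and belongs to a region 4 bp from that peak. The Nr1d2 window, in an intron of a clock repressor gene, and the Maf window, 64.8 kb after the start of this transcription factor gene, held 1 MEF2 match each and were chosen after their values were seen.
Mbnl2, chr14:120368570-120368869: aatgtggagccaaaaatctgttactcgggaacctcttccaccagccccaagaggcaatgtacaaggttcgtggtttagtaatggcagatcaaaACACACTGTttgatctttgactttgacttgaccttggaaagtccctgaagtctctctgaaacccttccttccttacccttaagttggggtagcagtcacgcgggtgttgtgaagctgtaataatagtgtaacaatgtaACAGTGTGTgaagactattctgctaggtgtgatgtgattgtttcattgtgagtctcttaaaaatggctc
Mrtfb, chr16:13233574-13233873: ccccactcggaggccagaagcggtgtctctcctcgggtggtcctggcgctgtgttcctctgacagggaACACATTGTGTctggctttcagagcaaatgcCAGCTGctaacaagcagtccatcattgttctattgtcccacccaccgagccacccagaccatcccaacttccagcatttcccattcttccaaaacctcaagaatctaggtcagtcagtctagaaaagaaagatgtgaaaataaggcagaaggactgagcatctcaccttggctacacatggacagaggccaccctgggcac
Slc8a3, chr12:81331341-81331640: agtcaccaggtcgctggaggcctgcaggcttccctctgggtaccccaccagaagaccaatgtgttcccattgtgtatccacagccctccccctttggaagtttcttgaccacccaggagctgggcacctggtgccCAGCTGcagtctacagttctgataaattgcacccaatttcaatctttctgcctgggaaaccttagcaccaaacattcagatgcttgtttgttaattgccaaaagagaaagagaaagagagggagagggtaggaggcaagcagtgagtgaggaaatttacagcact
Nr1d2, chr14:18234414-18234713: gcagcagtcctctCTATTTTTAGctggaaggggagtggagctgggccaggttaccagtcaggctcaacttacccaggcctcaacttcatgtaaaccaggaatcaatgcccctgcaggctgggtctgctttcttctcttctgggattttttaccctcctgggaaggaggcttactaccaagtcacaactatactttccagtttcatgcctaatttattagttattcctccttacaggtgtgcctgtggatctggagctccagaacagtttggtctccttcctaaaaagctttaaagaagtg
Maf, chr8:115641946-115642245: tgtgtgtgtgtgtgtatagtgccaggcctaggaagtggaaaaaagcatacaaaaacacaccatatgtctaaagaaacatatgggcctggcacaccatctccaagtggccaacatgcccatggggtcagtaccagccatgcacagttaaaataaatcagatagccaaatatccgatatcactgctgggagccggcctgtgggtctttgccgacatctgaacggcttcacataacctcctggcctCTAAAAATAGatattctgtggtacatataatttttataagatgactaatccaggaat

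Of the 87199 vehicle peaks, 89.7% overlapped no day 4 peak, and these background shares are fixed by the rule for the re-called regions. Over all vehicle peaks 17.1% overlapped a peak of either later list, 13.1% a day 6 peak and 12% a day 8 peak. The 8097 regions made up 10.3% (10.1 to 10.6) of the 78245 vehicle peaks not called at day 4, and 70148 peaks were called at no later day. For comparison, 6845 of the 8954 vehicle peaks called at day 4 (76.4%) overlapped a later male peak. The share of vehicle peaks that were re-called was 4.19% in the lowest quartile of normalized tag counts (tags in the peak per 10 M tags of the library) and 20.4% in the highest.

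The later calls were spread over both days. Day 6 alone held 3698 regions (45.7%), day 8 alone held 2268 (28.0%), and 2131 (26.3%) were present at both. The 5829 regions present at day 6 overlapped 5653 peaks, 17.6% of that list, and the 4399 regions present at day 8 overlapped 4360 peaks, 21.3% of that list. The later peak of 471 regions (5.82%) was wide enough to overlap a day 4 peak beside the region, so these lay in a longer stretch that was partly called at day 4.

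At the later days the tag density of the regions was below that in vehicle. Tag density is the normalized tag count divided by the width of the peak in which it was counted. Among the 2131 regions present at both days the median was 28.0 tags per kb in vehicle, 15.1 at day 6 and 15.0 at day 8. It was below the vehicle value for 2089 regions (98.0%) at day 6 and 2078 (97.5%) at day 8. The 4772 vehicle peaks called at all 3 later male days were alike in this, with medians of 32.3, 19.0 and 19.3 tags per kb and a value below vehicle in 96.5% and 96.1%, so the lower density was not particular to the re-called regions. Regions of day 6 alone had medians of 25.4 tags per kb in vehicle and 12.3 at day 6, and those of day 8 alone had 24.6 in vehicle and 14.3 at day 8. The median fold over input did not go one way. In the regions of both days it was 5.19 in vehicle, 4.19 at day 6 and 4.49 at day 8, in those of day 6 alone it was 4.89 in vehicle and 5.37 at day 6, and in those of day 8 alone 4.25 in vehicle and 4.59 at day 8. In the male lists autosomal peaks took 18.1% of the vehicle tags, and 9.28%, 5.33% and 5.93% of the tags at days 4, 6 and 8, and the part of this in the density values was not tested.

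**Figure D1:**
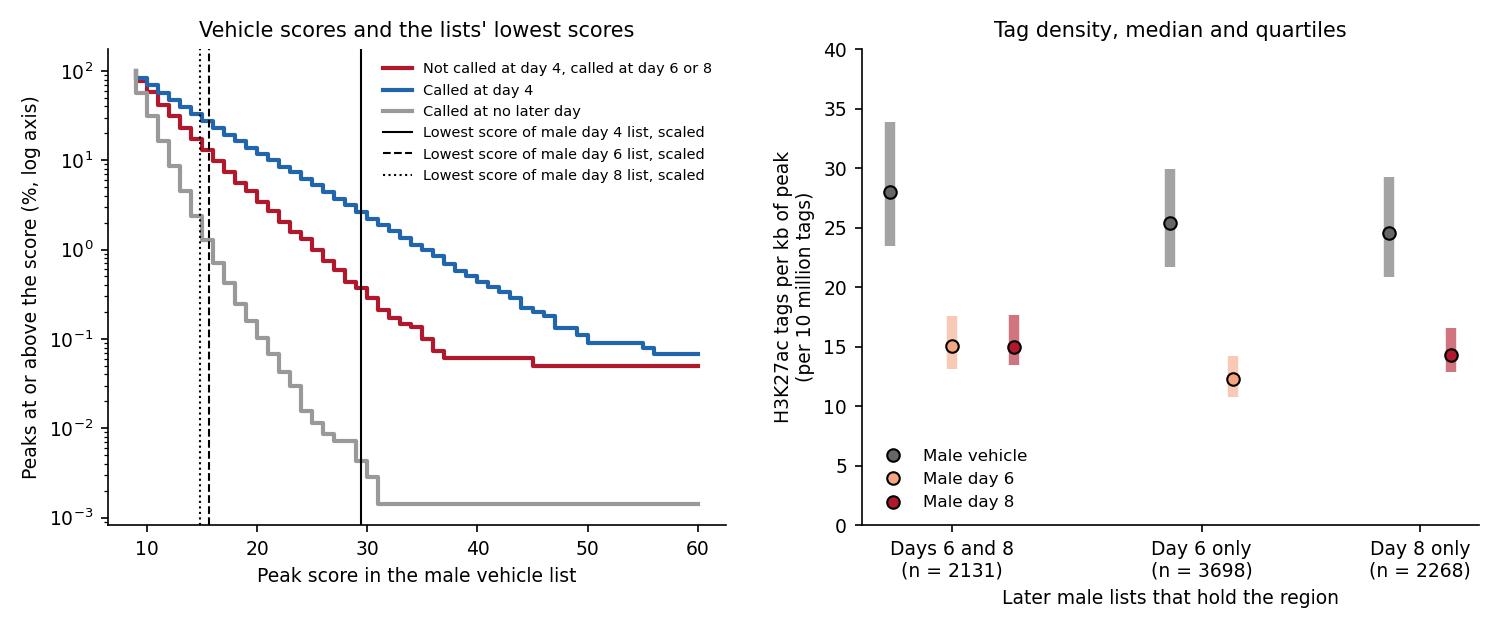
The left panel plots the percent of male vehicle peaks (log axis) at or above each vehicle peak score from 9 to 60, for re-called regions, peaks called at day 4 and peaks called at no later day, with vertical lines at the lowest score of each later male list scaled to vehicle depth (29.4, 15.6 and 14.8 for days 4, 6 and 8). The right panel plots median tag density (points) with quartiles (bars) in vehicle and in the later list for the 2131, 3698 and 2268 regions present at both days, day 6 alone and day 8 alone. Vehicle medians lie between 24.6 and 28.0 tags per kb and later medians between 12.3 and 15.1.

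The re-called regions recurred in the female lists, which the rule did not use. The female vehicle list held 3133 of them (38.7%, 37.6 to 39.8), against 12.1% of all male vehicle peaks. The female day 4 list held 6591 (81.4%, 80.5 to 82.2) against 29.2%, the day 6 list 7408 (91.5%, 90.9 to 92.1) against 51.5%, and the day 8 list 7383 (91.2%) against 40.2%. The female vehicle, day 4, day 6 and day 8 lists held 38861, 67503, 123249 and 81696 peaks, and a longer list offers more peaks to overlap. Peaks called at no later male day were found far less often, at 3.02%, 15.5%, 41.2% and 27.3%, and peaks called at male day 4 more often, at 58.8%, 89.6%, 96.4% and 94.8%. The re-called regions had to be in a later male list, and the 6845 peaks called at day 4 that were also in one stood at 72.3%, 98.9%, 99.6% and 99.8%.

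Wide peaks overlap other lists more easily, and the re-called regions had a median width of 778 bp against 500 bp for peaks called at no later day. Among vehicle peaks of exactly 500 bp, 2565 were re-called, and 25.2% of these were in the female vehicle list, 63.5% in the day 4, 80.3% in the day 6 and 81.0% in the day 8 list. Peaks of the same width called at no later day reached 2.06%, 10.7%, 33.4% and 20.4%. Peaks of 500 bp called at male day 4 reached 16.9%, 54.7%, 81.2% and 72.8%, but most of these were in no later male list. The 334 of them that were in one reached 41.0%, 91.3%, 97.9% and 97.6%, above the re-called regions in each female list.

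**Figure D2:**
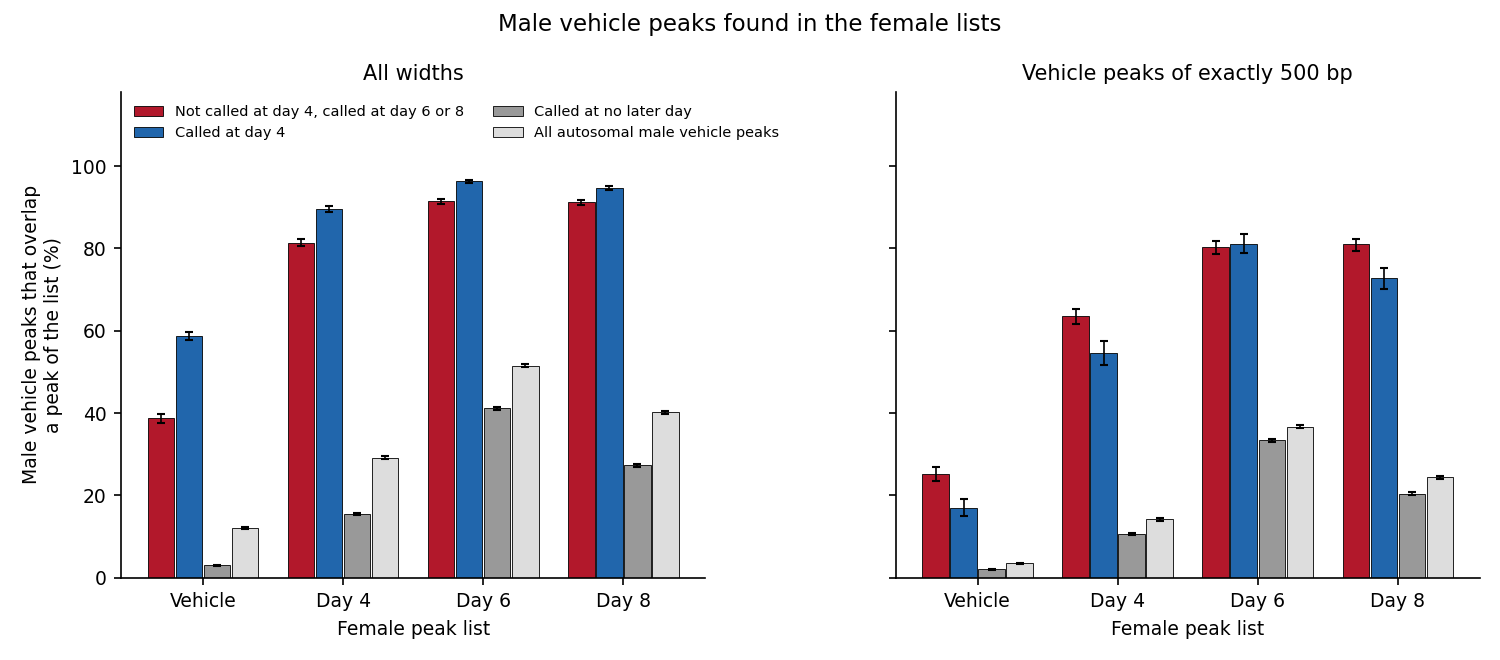
Bars give the percent of male vehicle peaks that overlap a peak of each female list, with Wilson 95% intervals, for the re-called regions, peaks called at male day 4, peaks called at no later male day and all autosomal peaks. The left panel holds peaks of all widths and the right panel those of exactly 500 bp. The re-called regions stand at 91.5% in the female day 6 list over all widths and at 80.3% among peaks of 500 bp.

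Region by region, 3422 (42.3%) were absent from the female vehicle list and present at all 3 female days after prednisone. Over all male vehicle peaks this share was 14.8%. Another 2941 (36.3%) were in all 4 female lists, against 10.7% of all male vehicle peaks. A total of 668 (8.25%) were present from female day 6 on, against 10.6%, and 398 (4.92%) were in no female list, against 42.9%. The male pattern itself, called in vehicle and at days 6 and 8 but not at day 4, was found in females for 104 regions. This is 1.28%, against 0.549% of all male vehicle peaks. The same rule on the female lists chose 3661 female vehicle peaks, and 170 of these (4.64%) overlapped 171 of the male regions (2.11%). Of the regions split by male day, those of both days recurred most, with 63.1% in the female vehicle list and 99.7% in the female day 8 list, while regions of male day 8 alone stood at 23.3% and 88.1%.

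Most re-called regions were distal. By the peak center 55.2% (54.2 to 56.3) lay in introns, 20% between genes, 15.1% (14.4 to 15.9) at promoters, 8.11% in exons and 1.53% at transcription ends. Promoters, reaching 1 kb upstream and 100 bp downstream of a start, made up 2.63% of peaks called at no later day, 31.9% of peaks called at day 4 and 6.80% of all vehicle peaks. Among the re-called regions the promoter share was 24.4% for those of both days, 8.84% for day 6 alone and 16.7% for day 8 alone. Their median distance to the nearest protein-coding start was 10.6 kb, between the 26.9 kb of peaks called at no later day and the 0.629 kb of peaks called at day 4.

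**Figure D3:**
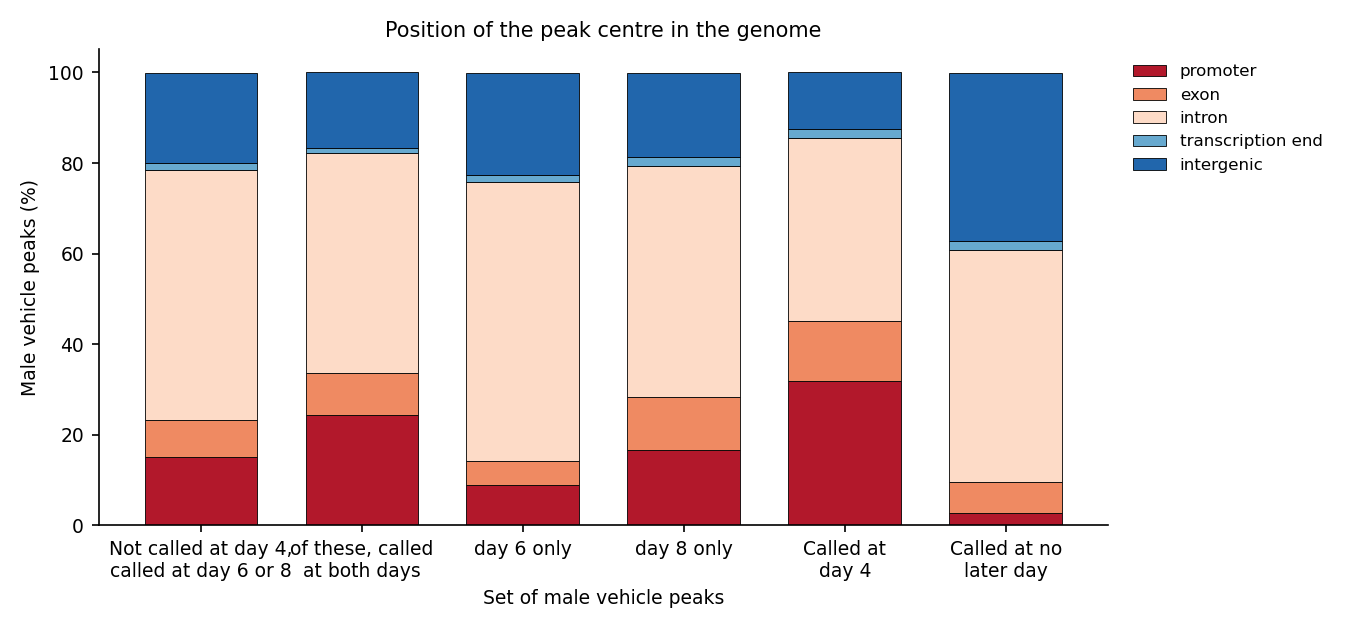
Stacked bars give the percent of male vehicle peaks whose center lies at a promoter, exon, intron, transcription end or between genes. The promoter part is 15.1% in the re-called regions, 24.4% in those of both days, 8.84% and 16.7% in those of day 6 or day 8 alone, 31.9% in peaks called at day 4 and 2.63% in peaks called at no later day.

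The base composition of the regions also lay between these sets. Median GC content of the central 500 bp was 50.6%, against 49.6% in peaks called at no later day and 57.4% in peaks called at day 4, and the ratio of observed to expected CpG was 0.265, against 0.209 and 0.563. Repeats covered a median of 8.40%, against 12% and 5.80%. A total of 405 regions (5.00%) lay on high background, with input tags in the top 1% or over 50% repeats, against 9.81% of all vehicle peaks. Per chromosome the re-called share of vehicle peaks ran from 7.97% on chromosome 12 to 11.5% on chromosome 16.

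Matches to the MEF2 motif were found in 136 windows (1.68%, 1.42 to 1.98) of 500 bp on the region center, against 0.657% (0.606 to 0.713) of all vehicle peaks. Peaks called at no later day held it in 0.512% and peaks called at day 4 in 0.871%. The share was 2.30% in the regions of both days, 1.70% in those of day 6 alone and 1.06% in those of day 8 alone. Outside promoters it was 1.8% in re-called regions, 0.514% in peaks called at no later day and 1.07% in peaks called at day 4. Among the listed genes, those with such a region nearest to them were Mef2c, which encodes a MEF2 factor itself, Nr1d2, Asph, Sox6 and Maf.

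The core of the glucocorticoid receptor element was found in 12.2% (11.5 to 13.0) of the regions, against 11.6% (11.4 to 11.8) of all vehicle peaks and 12% of peaks called at no later day. The MyoD E-box stood at 29.8% (28.8 to 30.8) against 27.1% (26.8 to 27.4). TEAD at 22.6% against 21.9%, AP-1 at 11.9% against 11.5% and the motif of estrogen-related receptors at 0.914% against 0.817% had overlapping intervals. CRE was held by 96 regions, 1.19% against 0.640%, and 51 of these were promoters, where it was in 4.16% of re-called regions and 3.88% of peaks called at day 4. RUNX was held by 25.6% against 27%. A match is a run of letters in the window and not a measured binding site.

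Re-called regions lay closer to day 4 peaks than did peaks called at no later day. The median distance to the nearest day 4 peak was 13.6 kb, 851 regions (10.5%) had one within 1 kb and 3550 (43.8%) within 10 kb. In peaks called at no later day the median was 31.6 kb, with 2.75% within 1 kb and 24.5% within 10 kb. The regions were also grouped among themselves, with 3081 (38.1%) in 1206 groups joined by gaps of up to 12.5 kb, the most in a group being 10. At the edge of the rule, the members closest to a day 4 peak lay 1 bp away in an exon of Spaar, 2 bp away between genes on chromosome 1 and 4 bp away in Slc8a3. Vehicle peaks that just missed the rule overlapped a day 4 peak by 1 bp in Sox13, 1 bp in Nudt3 and 2 bp in Tpm3. In all, 108 members had a day 4 peak within 100 bp, and 129 of the 6845 peaks called at day 4 and later overlapped it by at most 100 bp.

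**Figure D4:**
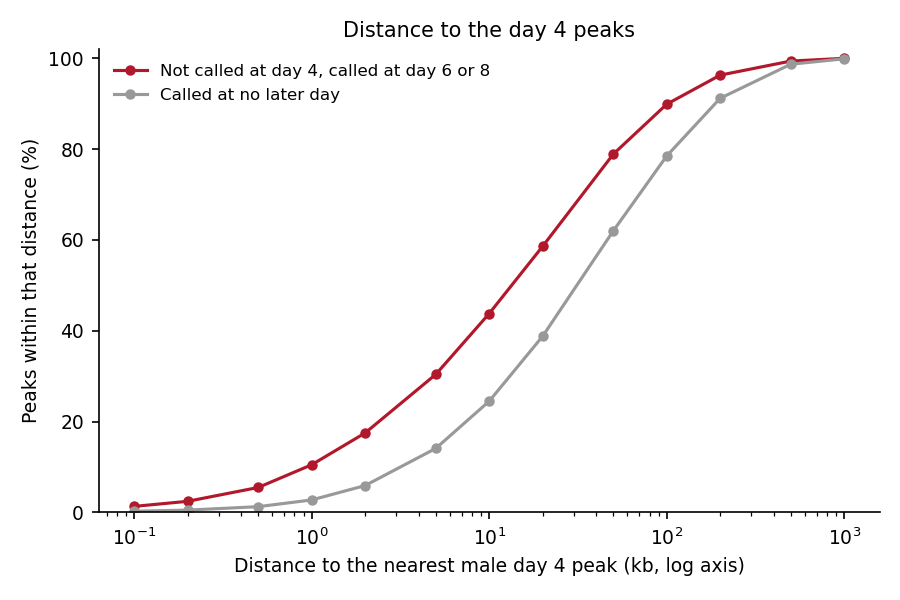
Lines give the percent of re-called regions and of peaks called at no later day that lie within a given distance (kb, log axis) of the nearest male day 4 peak. At 10 kb the lines stand at 43.8% and 24.5%.

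Genes near these regions were counted by a member within 10 kb of a start, which 4207 of 20021 autosomal protein-coding genes had (21.0%). Nearness does not show which gene a region acts on. The share was higher in each of the 12 lists of muscle and metabolic genes, but nearly all genes of these lists had a vehicle peak that could be re-called, whereas 74.6% of all genes did. Sarcomere genes had a region in 16 of 30 cases, calcium handling genes in 11 of 20, myogenic regulators in 11 of 20, glucose metabolism genes in 8 of 12, lipid metabolism genes in 12 of 25, clock genes in 9 of 16 and genes of membrane repair and the dystrophin complex in 8 of 15. Smaller shares were found for IGF1 and PI3K genes, 7 of 20, known glucocorticoid receptor targets, 7 of 19, the atrophy program, 6 of 14, nuclear receptors and coactivators, 5 of 17, and the neuromuscular junction, 4 of 12. Of all genes with a vehicle peak within 10 kb, 28.2% had a re-called region. On the same basis the 12 lists ran from 31.2% for nuclear receptors, 33.3% for the neuromuscular junction and 35.0% for IGF1 and PI3K genes to 55.2% for sarcomere and 66.7% for glucose metabolism genes. Within 2 kb the value over all genes was 22.5%, and the atrophy program (14.3%), receptor targets and glucose metabolism (16.7% each) and nuclear receptors (18.8%) lay below it.

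Markers of other cell types were counted the same way. Endothelial markers had a region in 4 of 8 cases (Pecam1, Cdh5, Kdr and Egfl7), myofiber markers in 7 of 10, and leukocyte, smooth muscle and Schwann cell markers in 1 of 8, 1 of 8 and 1 of 5. None was found within 10 kb of the 6 satellite cell, 8 fibroblast and 7 adipocyte markers, of which 5, 3 and 6 had a vehicle peak at that distance. These counts depend on the distance: within 50 kb, where 43.7% of all genes had a region, so did 4 of 7 adipocyte and 5 of 8 smooth muscle markers. The part of vessel chromatin in the set was not tested.

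**Figure D5:**
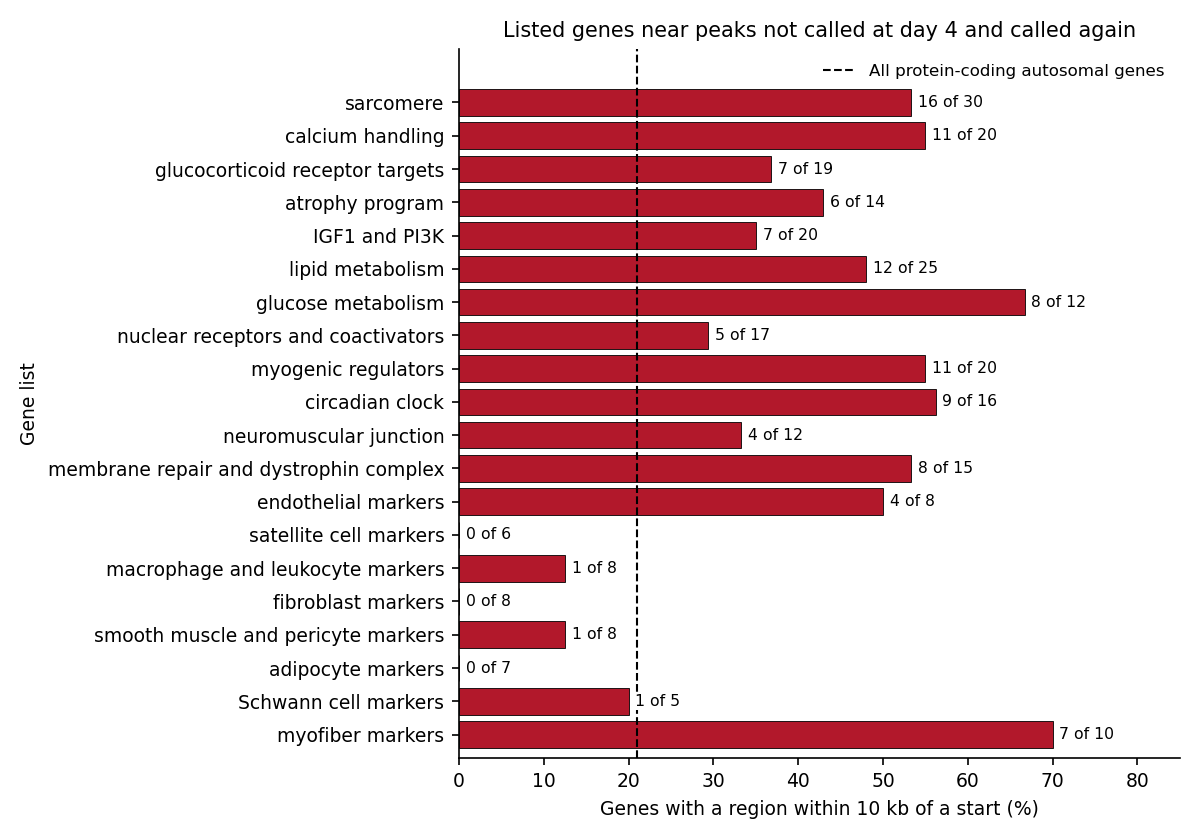
Bars give the percent of genes of each list with a re-called region within 10 kb of a start, with the number of genes beside them, and the dashed line marks the 21.0% of all autosomal protein-coding genes. Glucose metabolism (8 of 12) and myofiber markers (7 of 10) have the longest bars, and the bars of satellite cell, fibroblast and adipocyte markers are at 0.

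At 24 promoters of listed genes a region was re-called. Of these, 14 were called at both days, 5 at day 6 alone and 5 at day 8 alone. The female vehicle list held 11 of them and each female list after prednisone held all 24. This is near the share of all 1225 re-called promoter regions. Of those, 46.3% were in the female vehicle list, 94.6% in the day 4 list and 98.9% in each of the day 6 and day 8 lists. Their distance to the nearest day 4 peak ran from 0.558 to 441 kb. In the values below, the normalized tag count of another list is that of the peak that overlaps the region most, which can be wider.

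Among the re-called promoters of genes of fuel use, those of Pdk4, Gyg and Dgat2 were called at both later days. Of all 1225 re-called promoter regions, 519 were called at both. Most genes of fuel use had no such region: within 2 kb of a start, 5 of 25 lipid and 2 of 12 glucose metabolism genes had one. Pdk4, which limits pyruvate oxidation and is a known receptor target, had a region at chr6:5495833-5497382 with 51.9 normalized tags in male vehicle, 51.8 at day 6 and 31.5 at day 8. The region overlapped no female vehicle peak and had 59.0, 195 and 169 tags at female days 4, 6 and 8. The male vehicle and day 6 counts lay close together. Male folds over input were 6.46 in vehicle, 3.59 at day 6 and 6.87 at day 8. The female day 6 and day 8 counts were higher. Autosomal peaks as a whole took 46.8% and 25.6% of the tags in the female day 6 and day 8 lists. In the male lists of those days they took 5.33% and 5.93%. The part of this in the female counts here and below was not tested. The nearest male day 4 peak was 51.9 kb away. Gyg, the primer protein of glycogen synthesis, had 21.2 tags in vehicle and 33.0 and 24.9 at days 6 and 8. Its folds over input went the other way, with 11.1 in vehicle and 4.15 and 5.44 at days 6 and 8. The promoter region of Gyg again overlapped no female vehicle peak and had 52.3 to 97.2 tags at the female days. Dgat2, at chr7:99182205-99183545, had 41.7 tags in vehicle and the lower values of 6.53 and 9.35 at days 6 and 8, and was in all 4 female lists with 12.4 to 111 tags. Angptl4, an inhibitor of lipoprotein lipase, was re-called at day 6 alone, with 56.6 tags in vehicle and 11.9 at day 6. Its nearest day 4 peak was 1.23 kb away.

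At contractile and calcium genes the tag counts, which are not divided by peak width, differed between the days. Acta1, skeletal alpha-actin, had a region of 5097 bp with 136 tags in vehicle, 39.4 at day 6 and 42.4 at day 8, and its 77 input tags placed it on high background. Myl1, a myosin light chain, had 11.4, 22.2 and 6.55 tags, and Tpm1, a tropomyosin, had 20.6, 33.4 and 11.8 tags, so both were highest at day 6. Myh4, the fast IIB myosin heavy chain, was re-called at day 6 alone with 17.4 tags in vehicle and 51.4 at day 6. Its fold over input was 9.10 in vehicle and 7.96 at day 6. Pvalb, the calcium buffer of fast fibers, had similar values, 44.9, 40.2 and 41.8 tags, and its nearest day 4 peak was 1.8 kb away. Fkbp1a, which encodes a protein bound to the ryanodine receptor, had 45.5, 28.9 and 18.1 tags; its region was called a promoter through another annotated start and lay 0.510 kb after the nearest coding one.

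Regulators, membrane genes and a vessel gene complete the promoters. Per2, a repressor of the circadian clock, had 44.3 tags in vehicle, 9.50 at day 6 and 18.4 at day 8. Mef2c had 26.6, 33.6 and 10.6 tags, with folds over input of 8.68, 2.82 and 4.16. Neither the Per2 nor the Mef2c promoter region overlapped a female vehicle peak. The Mef2c region was called a promoter through another annotated start and lay 0.222 kb after the nearest coding one. Anxa6, an annexin of membrane repair, had 28.8, 14.6 and 24.9 tags, and Trim72, a repair protein at the sarcolemma, had 77.8, 24.7 and 37.7. Myog, the myogenic factor myogenin, and Zbtb16, a known receptor target, were re-called at day 8 alone. The Myog region was also a promoter only through another start, 0.142 kb after the nearest coding one. Myog had 45.2 tags in vehicle and 17.5 at day 8, while Zbtb16 had 5.38 in vehicle and 83.9 at day 8 within a wider peak. The Zbtb16 region lay 0.558 kb from a day 4 peak, and its folds over input were 4.69 in vehicle and 5.68 at day 8. Pecam1, the endothelial adhesion molecule, had 30.4 tags in vehicle and 28.7 at day 6, and its nearest day 4 peak was 1.15 kb away. The other promoters included those of the sarcoglycans Sgcb and Sgcd, the agrin receptor Lrp4, Asph and Nfix.

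The regions of highest vehicle score were of a mixed kind. The highest 4, near Ly6c2, Brox and, in 2 cases, Sfi1, had scores of 236, 87, 133 and 67, with 762, 367, 767 and 150 input tags and folds over input of 2.00 to 2.11, so they lay on high background at the limit of the calling rule. The next were the promoter of Cox10, an enzyme of heme synthesis for cytochrome oxidase, with a score of 45 and a 13.8-fold excess over input, an intron of Cog3, a Golgi tethering protein, with 37, and the promoters of Lrrc57 and Zfp426 with 36 each. Cox10 had 63.6 tags in vehicle, 14.8 at day 6 and 19.0 at day 8, was in all 4 female lists with 13.4, 28.4, 127 and 93.4 tags, and lay 187 kb from any day 4 peak. Dgkz, a diacylglycerol kinase, and Rmnd5a, part of a ubiquitin ligase, closed the highest 10 with 35 each. Without the regions on high background, Ubxn2a, Cds2, Itprid2 and Atp5mpl took the places of the 4, with scores of 33 to 35, and all 4 were present at both male days and at the 3 female days after prednisone.

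Some genes held many re-called regions. Of 4915 genes that were nearest to a region, 216 had 5 or more and 16 had 10 or more. Sgms1, a sphingomyelin synthase, had 14, which is 42.4% of its 33 vehicle peaks, and 2 of the 33 were called at day 4. All 14 were intronic and present at day 6, and 3 were present at day 8. Their vehicle tag counts ran from 11.1 to 60.7 with a median of 24.2. Some neighbors shared 1 later peak, such as that of 98.3 tags at day 6 over the regions 30 and 32.1 kb from a Sgms1 start, so they are not independent. Mbnl2 had 12 of 34 peaks, all at day 6 and 2 at day 8, including its promoter with 33.8 tags in vehicle, 80.1 at day 6 and 35.8 at day 8. Mrtfb also had 12, of 42 peaks, with 9 at day 6 and 8 at day 8, and Msi2, an RNA-binding protein, equaled this with 12 of 44.

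Genes of the lists with most regions nearest to them were Tpm1 with 11, Sox6, a repressor of slow fiber genes, and Tead1, a TEAD factor. Sox6 had 10 of its 36 vehicle peaks and Tead1 had 9 of 38. Over all vehicle peaks the re-called share was 9.29%. Of the 41 vehicle peaks nearest to Tpm1, 3 were called at day 4, and 8 of its 11 regions were present at day 6 and 8 at day 8. The 9 regions at Tead1 were all intronic and present at day 6, with 1 at day 8. All 9 were in each female list after prednisone while 3 were in the female vehicle list. Over all re-called regions the shares were 81.4%, 91.5% and 91.2% at female days 4, 6 and 8 and 38.7% in female vehicle. The regions at Sox6 were present at day 6 in 8 cases and at day 8 in 3.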

How the data were processed

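H3K27ac ChIP-Seq lists of 8 groups of mouse quadriceps myofibers were used. Reads had been trimmed by homerTools and aligned by Bowtie2 2.2.6 to mm10 by the authors, who then ran findPeaks of HOMER in its histone mode against input with a minimum fold of 2. TopHat2 2.1.0 is also in the submitters' processing notes. How the 2 libraries of a group were joined into 1 list is not given in the sources used here. In all 8 lists the deposited signal per peak is a normalized tag count per 10 M tags. The male day 4 and female day 6 lists hold deposited raw tag counts, and the others hold tags scaled to the input library. The deposited findPeaks score is a tag number not scaled for depth, and the deposited ratio is the fold over input. The authors' p-values against input were not used.

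For lists with tags scaled to the input, depth was read off the spacing of low normalized tag counts. For the male day 4 and female day 6 lists it was the median ratio of raw to normalized tag counts in the highest peaks. At these depths 100% of the low counts were whole multiples of 1 tag in each list. For the lists with tags scaled to the input the depth was chosen to give such multiples, so there it is not a separate check. Overlaps of 1 bp, distances and Wilson 95% intervals were computed with Python 3.11.15, numpy 2.4.6 and pandas 2.3.3. The overlap code was tested on simulated data (20000 peaks, 1000 planted regions, 1000 recovered) and against bedtools 2.31.1. Classes used 45756 curated RefSeq transcripts of GRCm38.p6 with the HOMER definitions. Motifs were searched in 500 bp on the peak center, with repeats masked. The 20 gene lists held 286 entries, of which 280 were found. The members and the lists were chosen with earlier results of these data known.

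Named regions were the 10 highest scores, also among those of both days, promoters of listed genes (some are not reported here), with values for the 12 highest scores and for some others chosen after their values were seen, the 3 genes with most members and the 3 regions on each side of the overlap rule. Tpm1, Sox6, Tead1 and Msi2 were added after their counts were seen. With 1 list per group no test between groups was made. Alternatives were a coverage of 50%, a distance of 1 kb, a fold of 4, lists of equal length, high background left out, both later days asked for, a promoter of 2 kb, a window of 200 bp, unmasked repeats and distances of 2 and 50 kb. A common score limit, peaks of 500 bp and the comparison with peaks called at day 4 and later were added after seeing the data. Regions outside the autosomes were left out.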

Additional observations from a re-analysis of the deposited data

Results flagged for a closer look

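Outside the 19 autosomes, where the rule did not look, 92 of 401 male vehicle peaks had no day 4 overlap and overlapped a day 6 or day 8 peak. Of these, 91 lay on chromosome X, which is 23.9% of the 380 vehicle peaks there. On the autosomes 8097 of 87199 vehicle peaks (9.29%) met the same conditions. The count was listed because it lies in peaks that the comparisons did not use, and the difference between the shares was not tested.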

How the results depend on the processing

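No paired analysis was possible because each group has 1 deposited list, and for the same reason no replicate could be left out. The set kept its size within 1.5 times when 50% of the vehicle peak had to be covered (6693), when a peak within 1 kb counted as shared (11284) and without high background (7692). It held 4405 regions at a fold of at least 4, 2888 with lists of equal length, 2131 when both later days were asked for, 2565 among peaks of 500 bp and 14 under the common score limit, both of the latter chosen after seeing the data. The share present at both later days became 25% with 50% coverage, 16.2% at a fold of 4, 33.4% with equal lengths, 12.5% at 500 bp and 28.6% under the score limit. The share in the female day 8 list became 95.1%, 80.5% (within 1 kb), 90.0%, 98.0%, 99.7% (both days), 81.0% and 92.9% in the order coverage, distance, fold, length, days, 500 bp and score limit. The promoter share in that order without the fold was 23.5%, 11%, 22.0%, 24.4%, 10% and 57.1%, and 32.2% with promoters of 2 kb. Median width was 641 bp within 1 kb, 752 bp at a fold of 4, 842 bp under the score limit and 500 bp by construction. The glucocorticoid receptor core was in 4.89% of windows of 200 bp and 14.0% with repeats unmasked. Genes with a region numbered 8740 within 50 kb and 2721 within 2 kb. The cause of these shifts was not tested, apart from the settings' own construction. Of 41 alternatives for the main values, 9 were counted as the same and 32 as moved. Of 117 for the other values, 37 moved by less than their counting interval and 80 were counted as moved. The male day 4 depth of 7.52 M tags limits every statement on absence at day 4.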
